A study of Mus musculus with 22 samples.

Results

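Intronic footprints of hnRNP A1 in mouse genes that span less than 200 kb were examined in the spinal cords of 10 mice. A footprint was a genome interval recovered by CLIPseq, in which protein and RNA are crosslinked with UV light, the RNA held by one protein is pulled down with an antibody, and that RNA is sequenced. It counted as a member when its midpoint lay inside a protein-coding gene and in no annotated exon of any gene, and when every protein-coding gene that it overlapped spanned less than 200000 nt. By this rule 11085 of the 136207 footprints of the 10 mice were members. The gene length nearest to the limit was 199920 nt on the inside (*Atp9b*, 9 footprints) and 200031 nt on the outside (*Pcbp3*, 3 footprints).

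All mice were female wild-type C57BL/6N. The 3 naïve mice were healthy, age-matched controls, and the 7 mice with experimental autoimmune encephalomyelitis (EAE) had received pertussis toxin and an emulsion of complete Freund's adjuvant with MOG(35-55), a peptide of a myelin protein. Their spinal cords were taken 15 days after clinical onset. Immunization was at 12 weeks of age by the treatment protocol and at 8 weeks by the design text. The labels give clinical scores of 1.5, 1.5 and 1.0 for the mild EAE mice (numbered 3, 4 and 7). For the severe EAE mice (numbered 1, 2, 5 and 6) they give 2.5, 3.0, 2.5 and 3.0. Each mouse gave 1 immunoprecipitation from the whole spinal cord, so neurons, glia and infiltrating leukocytes were sampled together.

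hnRNP A1 is a nuclear RNA-binding protein that shuttles to the cytoplasm and that recognizes short sequences built around UAG. It is known as a regulator of alternative splicing that often acts as a repressor of exon inclusion, and it can be bound in introns as well as in exons. Introns carry most of the sequence of a pre-mRNA, and a splice site is the boundary at which an intron is cut out, the 5′ splice site at its start and the 3′ splice site at its end.

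The sequences of the regions found in the most mice show what many of the recurrent members looked like. Members of all mice that overlapped were merged into 8026 regions, and the regions printed lie in a single gene and are at most 300 nt long. They are given 5′ to 3′ on the strand of the gene from GRCm38, with each TAG (UAG in the RNA) in capitals. The first 6 were found in 8 or 7 of the 10 mice.
*Arid5b*: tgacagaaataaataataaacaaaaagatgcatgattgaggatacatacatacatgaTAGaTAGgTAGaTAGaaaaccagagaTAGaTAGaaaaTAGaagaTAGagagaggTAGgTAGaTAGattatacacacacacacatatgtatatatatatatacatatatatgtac
*Nckap5l*: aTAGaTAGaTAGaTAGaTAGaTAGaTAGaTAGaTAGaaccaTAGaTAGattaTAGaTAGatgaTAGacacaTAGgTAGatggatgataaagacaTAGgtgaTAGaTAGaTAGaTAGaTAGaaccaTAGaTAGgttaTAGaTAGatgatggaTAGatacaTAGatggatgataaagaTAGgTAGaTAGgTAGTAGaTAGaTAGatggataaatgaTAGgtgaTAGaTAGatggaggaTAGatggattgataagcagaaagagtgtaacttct
*Scyl3*: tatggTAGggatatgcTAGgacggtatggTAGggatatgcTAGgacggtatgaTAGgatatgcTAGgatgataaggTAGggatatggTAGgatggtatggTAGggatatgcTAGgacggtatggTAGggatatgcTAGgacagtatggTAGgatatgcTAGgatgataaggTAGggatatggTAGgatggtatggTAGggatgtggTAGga
*Ndst3*: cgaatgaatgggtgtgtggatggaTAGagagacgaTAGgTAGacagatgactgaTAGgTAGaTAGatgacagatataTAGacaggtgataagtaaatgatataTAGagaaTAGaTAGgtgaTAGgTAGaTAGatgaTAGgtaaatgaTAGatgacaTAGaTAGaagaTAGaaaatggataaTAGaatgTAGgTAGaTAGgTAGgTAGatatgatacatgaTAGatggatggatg
*Tap2*: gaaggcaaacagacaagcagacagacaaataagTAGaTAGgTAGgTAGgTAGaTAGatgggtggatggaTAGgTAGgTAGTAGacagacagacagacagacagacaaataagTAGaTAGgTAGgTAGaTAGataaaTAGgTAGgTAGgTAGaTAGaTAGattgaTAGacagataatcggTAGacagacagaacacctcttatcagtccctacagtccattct
*Kcnmb4*: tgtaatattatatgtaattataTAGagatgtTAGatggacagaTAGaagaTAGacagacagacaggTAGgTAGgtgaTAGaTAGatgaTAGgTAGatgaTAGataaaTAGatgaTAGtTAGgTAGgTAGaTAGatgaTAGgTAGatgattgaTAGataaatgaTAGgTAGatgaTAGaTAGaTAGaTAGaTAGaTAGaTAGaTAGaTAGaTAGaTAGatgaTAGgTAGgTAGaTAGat

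The *Arid5b* region lies at chr10:68207362-68207532 in intron 3 of 9 and was found in 8 mice. *Arid5b* encodes a DNA-binding protein of the ARID family. That region was 21191 nt from the nearest splice site and held 11 UAG and 0 CUA, the same letters read on the opposite strand. The *Nckap5l* region (chr15:99442713-99442983, intron 1 of 12) held 39 UAG and 0 CUA. The *Scyl3* region (chr1:163942994-163943204, intron 7 of 13) held 18 UAG and 6 CUA. The *Ndst3* region (chr3:123636607-123636840, intron 1 of 12), in the gene of a heparan sulfate sulfotransferase, held 25 UAG. The *Tap2* region (chr17:34209325-34209546, intron 5 of 11) held 23 UAG and 1 CUA, and its longest member had its midpoint 141 nt from a 5′ splice site. *Tap2* encodes a subunit of the peptide transporter that loads MHC class I. The *Kcnmb4* region (chr10:116469185-116469422, intron 1 of 2) lies in the gene of a subunit of the BK potassium channel and held 37 UAG. UAG recurred in short tandem units in these regions. Repeat-masked sequence made up 94.2% of the *Arid5b*, 84.1% of the *Nckap5l*, 0% of the *Scyl3*, 55.6% of the *Ndst3*, 74.3% of the *Tap2* and 92.9% of the *Kcnmb4* region. The sequences were read from the reference, so variation between the mice and the reference was not seen.

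To show the regions that went with one group, the most covered regions of all 3 naïve and no EAE mice (*Chst8* and *Cdon*) and of at least 3 EAE and no naïve mice (*C1qa* and *Cd84*) follow.
*Chst8*: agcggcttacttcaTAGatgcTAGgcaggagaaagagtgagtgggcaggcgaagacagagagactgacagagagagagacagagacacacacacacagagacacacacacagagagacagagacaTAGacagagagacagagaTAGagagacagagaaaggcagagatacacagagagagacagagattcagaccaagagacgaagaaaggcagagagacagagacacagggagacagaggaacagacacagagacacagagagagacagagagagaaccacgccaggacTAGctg
*Cdon*: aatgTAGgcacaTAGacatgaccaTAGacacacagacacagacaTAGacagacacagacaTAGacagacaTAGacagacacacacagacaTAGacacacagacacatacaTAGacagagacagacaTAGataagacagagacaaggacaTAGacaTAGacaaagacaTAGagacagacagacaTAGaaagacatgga
*C1qa*: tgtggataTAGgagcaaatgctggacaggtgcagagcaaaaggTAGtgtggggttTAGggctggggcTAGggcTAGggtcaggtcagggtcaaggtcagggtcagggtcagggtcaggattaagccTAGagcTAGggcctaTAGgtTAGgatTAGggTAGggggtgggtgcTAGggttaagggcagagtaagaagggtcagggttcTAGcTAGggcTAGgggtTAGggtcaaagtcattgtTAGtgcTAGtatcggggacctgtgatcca
*Cd84*: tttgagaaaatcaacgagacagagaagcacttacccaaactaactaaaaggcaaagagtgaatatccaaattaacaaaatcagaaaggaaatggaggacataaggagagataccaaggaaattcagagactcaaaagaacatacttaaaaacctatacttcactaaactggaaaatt

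The *Chst8* region (chr7:34736526-34736821, intron 2 of 3) held 5 UAG and 2 CUA, and the *Cdon* region (chr9:35472756-35472952, intron 9 of 18) held 13 UAG and 0 CUA. *Chst8* encodes a sulfotransferase and *Cdon* a cell surface co-receptor of hedgehog signalling. The *C1qa* region (chr4:136897981-136898250) lies in intron 1 of 2 of a gene for complement C1q, a product of microglia and macrophages. It was found in mild EAE mice 3, 4 and 7 and in severe EAE mouse 5, and held 18 UAG and 10 CUA. The *Cd84* region (chr1:171856750-171856926, intron 3 of 8) was found in the same 4 mice and held 0 UAG and 4 CUA. *Cd84* encodes a receptor of the SLAM family on leukocytes.

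The lists differed widely in length, from 209 footprints in severe EAE mouse 2 to 31870 in severe EAE mouse 5. Severe EAE mice 1, 2 and 6 had 215, 44 and 76 members, against 723 to 2479 in the other mice. The lists hold no read counts, so the depth behind a footprint is unknown. The study describes the sequencing depth of its samples as similar, and the depth of each mouse was not used here. It also describes the outlier of its severe group, severe EAE mouse 5 here, as in remission shortly before the end of the experiment. Naïve mouse 2 stood apart from naïve mice 1 and 3. Of the smaller list, 25.3% of members overlapped between naïve mice 1 and 3, whereas 12.1% and 9.72% did so between naïve mouse 2 and these. A further limit was repeated sequence. Of the members, 43.2% to 86.8% in each mouse held at least one sampled stretch of 31 nt that occurs once in the genome (called placeable here), and of exonic footprints in the same class of genes 61.2% to 95.3% did.

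The first question was how large a part the introns took of the footprints in genes under 200 kb. Intronic shares were 16.7%, 25.1% and 14.6% in naïve mice 1, 2 and 3. Mild EAE mice 3, 4 and 7 had shares of 6.41%, 12.3% and 8.71%, all below every naïve mouse. Severe EAE mice 1, 2, 5 and 6 had 12.1%, 30.99%, 10.1% and 18.1%. The severe group thus overlapped the naïve group, and its 2 high values belonged to the shortest lists, with 95% Wilson intervals of 24.0% to 39.0% and 14.7% to 22.0%. These intervals cover counting error only. The means were 18.8% ± 5.59 (SD, n = 3) in naïve and 14.1% ± 8.29 (SD, n = 7) over the EAE mice. EAE minus naïve was -4.69 percentage points, which was within the spread (two-sided exact permutation p = 0.408, adjusted over 9 results 0.938). For mild EAE the mean was 9.13% ± 2.96 (SD, n = 3) and the exact permutation p was 0.1, the smallest that 3 mice against 3 allow. With severe EAE mice 2 and 6 left out the difference from naïve was -8.86 points (exact permutation p = 0.0179, adjusted p = 0.161), without severe EAE mouse 2 alone it was -7.51 points (exact permutation p = 0.0476, adjusted p = 0.429), and without naïve mouse 2 it was -1.52 points (exact permutation p = 0.75). Severe minus mild EAE was 8.67 points (exact permutation p = 0.2, adjusted p = 0.6).

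**Figure D1:**
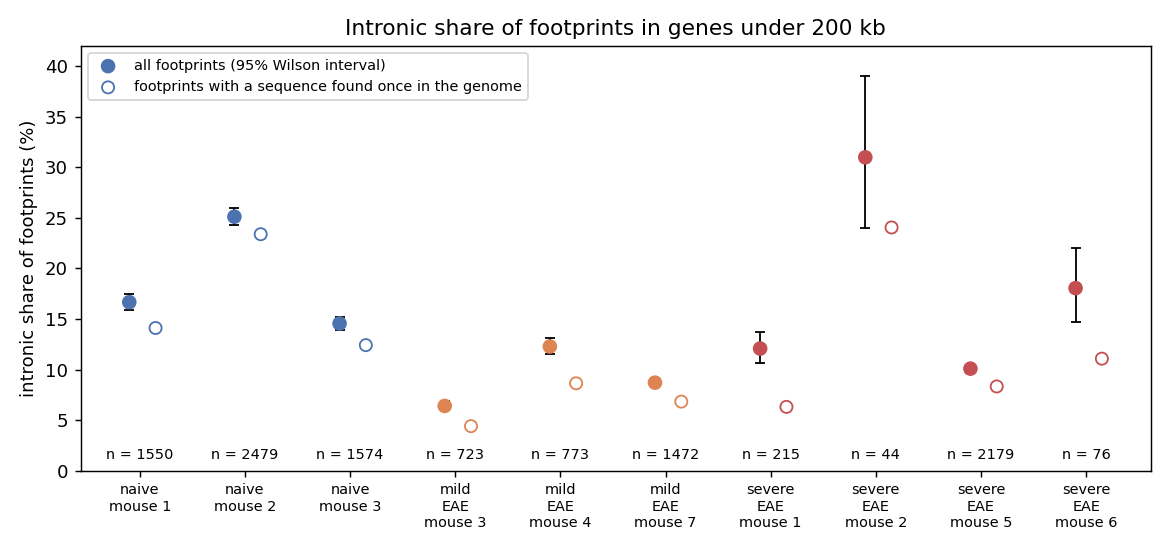
Intronic share of footprints in genes under 200 kb (%, vertical axis) in each of the 10 mice, filled points with 95% Wilson intervals for all footprints and open points for placeable footprints; n is the number of intronic footprints. The 3 mild EAE mice lie between 6.41% and 12.3%, below the 3 naïve mice, while severe EAE mouse 2, with 44 intronic footprints, is the highest at 30.99%.

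The plot of intronic share by mouse also shows that every share fell when only placeable footprints were kept, to 12.4% to 23.4% in naïve, 4.405% to 8.64% in mild EAE and 6.31% to 24.1% in severe EAE mice. Intronic footprints were longer than exonic ones in all 10 mice. Their median length was 125 to 147 nt, against 84 to 120.5 nt for exonic footprints of the same class of genes, a mean log2 ratio of 0.52 ± 0.21 (SD, n = 10, exact sign-flip permutation p = 0.00195, adjusted p = 0.00391). The assembled reads had been aligned in a mode that allows splicing. What part the ends of exons had in the shorter exonic lengths was not tested. Between 0% and 5.43% of the members of a mouse reached into an exon. In naïve mouse 2 the lengths were narrowly spread, with quartiles of 116 and 139 nt, whereas they were 124.25 and 174.75 nt in naïve mouse 1.

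The position within the intron was then measured, since hnRNP A1 bound near a splice site can affect the choice of that site. Most members lay far from splice sites. The median distance from the midpoint to the nearest splice site was 2085 nt, 2101 nt and 2274 nt in naïve mice 1, 2 and 3. It was 1983 to 2286 nt in mild EAE and 1156 to 2533 nt in severe EAE mice, where 1156 nt was the value of severe EAE mouse 2 with its 44 members. The groups overlapped, and the log2 medians were 11.07 ± 0.07 (SD, n = 3) in naïve and 11.00 ± 0.38 (SD, n = 7) in EAE mice (exact permutation p = 0.883).

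Within 300 nt of a splice site lay 7.89% to 13.4% of the members. In naïve mice 1, 2 and 3 this share was 11.4%, 13.4% and 9.66%. The same introns offered more room than was used. Had midpoints been spread evenly over their introns, 11.8% to 19.0% would have lain within 300 nt. The observed share was below that in 10 of 10 mice, by 2.81 points on average (difference -2.81 ± 1.91, SD, n = 10, exact sign-flip permutation p = 0.00195, the smallest possible, adjusted p = 0.00391). When the nearest edge of a footprint was used in place of its midpoint, the difference was -0.14 points (exact permutation p = 0.812). An edge lies nearer to a splice site than the midpoint, while the share offered by the introns was still computed for single positions.

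The deficit was in the first 300 nt. Of the members, 3.46% ± 1.204 (SD, n = 10) lay within 100 nt of a splice site, where even spread gave 4.89%, and 9 of 10 mice were below it. From 101 to 300 nt the share was 7.26% ± 1.40 (SD, n = 10) against 8.64%, lower in 10 of 10 mice. From 1001 to 3000 nt it was 29.2% ± 2.77 (SD, n = 10) against 27.3%, and only 1 of 10 mice was below.

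**Figure D2:**
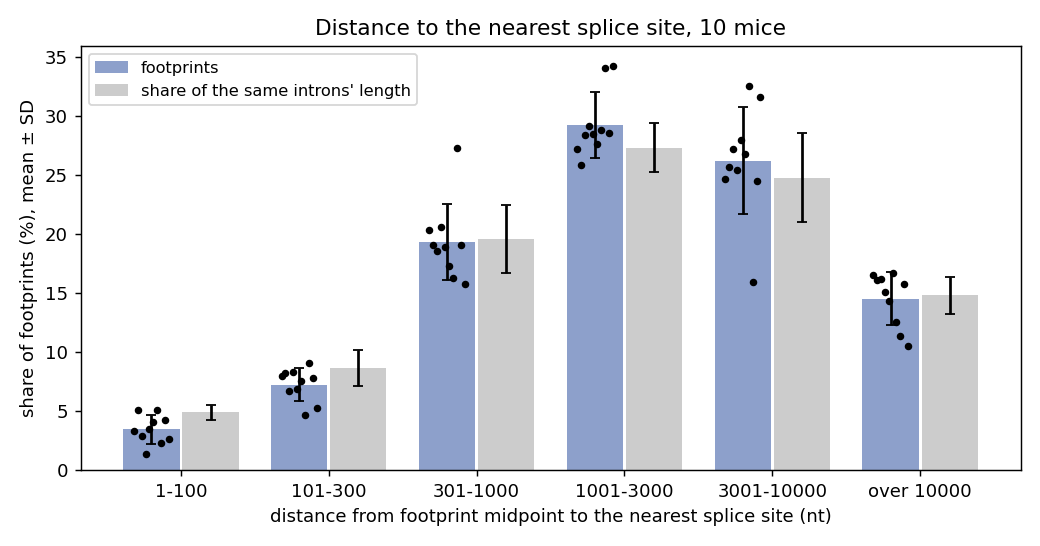
Share of intronic footprints (%, vertical axis) by distance in nt from the midpoint to the nearest splice site (horizontal axis), as the mean ± SD of 10 mice with 1 point per mouse, beside the share of the same introns' length in that range. Footprints fall below the introns' own share up to 300 nt and above it from 1001 to 10000 nt.

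As the plot of distances shows, beyond 10000 nt 14.5% ± 2.26 (SD, n = 10) of the members lay where even spread gave 14.8%. Members lay on both sides of introns. The share nearer to a 3′ than to a 5′ splice site was 44.5% to 48.7% in naïve, 46.6% to 49.7% in mild EAE and 42.8% to 52.3% in severe EAE mice (naïve against EAE, exact permutation p = 0.742). Compared with introns of genes of 200 kb or more, where 0% to 1.46% of footprints lay within 300 nt, the share in the shorter genes was 10.0 ± 1.43 points higher (SD, n = 10, exact sign-flip permutation p = 0.00195, adjusted p = 0.00391). The longer genes have longer introns, of which 300 nt is a smaller part, and these shares were not compared per length. The difference and its p therefore carry no information on position within the intron.

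By rank in the reference transcript of each gene, the first intron held 3128 members, more than any other single rank that was counted, and the introns from the fourth to the last but 1 together held 3581. The share of the first intron was 31.2%, 31.1% and 30.8% in naïve mice 1, 2 and 3, and the 33.1%, 33.7% and 34.3% of mild EAE mice 3, 4 and 7 did not overlap with these (exact permutation p = 0.1, the smallest possible). For severe EAE mice 1, 2, 5 and 6 the share was 36.2%, 60.5%, 29.9% and 33.3%, with severe EAE mouse 5, the longest list, lowest of all 10 mice. Over all EAE mice the mean was 37.3% ± 10.4 (SD, n = 7) against 31.02% ± 0.24 (SD, n = 3) in naïve mice (exact permutation p = 0.333). First introns also made up 30.6% to 56.9% of the intronic length of the same genes, and the observed share differed from this by -1.60 ± 3.02 points (SD, n = 10, lower in 7 of 10 mice, exact sign-flip permutation p = 0.125). The next intron held 16.02% ± 1.45 in naïve (SD, n = 3) and 15.1% ± 6.55 in EAE mice (SD, n = 7).

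The core motif of hnRNP A1 was counted on the strand of the gene in members that overlapped a single gene. UAG occurred 26.8, 13.6 and 30.2 times per 1000 nt in naïve mice 1, 2 and 3. For mild EAE mice 3, 4 and 7 this density was 29.7, 26.1 and 22.7. It was 17.9, 24.6, 21.8 and 32.3 for severe EAE mice 1, 2, 5 and 6. Windows of the same length 200 nt away held 13.3 to 19.3 per 1000 nt. Thus 9 of 10 mice were above their flanks and naïve mouse 2 was level with them (log2 ratio -0.01). The mean log2 ratio was 0.62 ± 0.27 (SD, n = 10, exact sign-flip permutation p = 0.00391, adjusted p = 0.00625). It was 0.48 outside repeat-masked sequence and 0.85 in placeable footprints, both alternatives added after the values had been seen (exact permutation p = 0.00391 and 0.00195).

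Exonic footprints of the same class of genes went the other way, with 5.56 to 8.83 UAG per 1000 nt and log2 ratios of -1.11 to -0.23 to their flanks. The ratio of members was above that of exonic footprints in 10 of 10 mice, by 1.49 ± 0.34 on the log2 scale (SD, n = 10, exact sign-flip permutation p = 0.00195, adjusted p = 0.00391). G and C made up 52.2% to 56.2% of exonic footprints and 43.3% to 49.1% of members. Flanks of exonic footprints held 10.4 to 12.2 UAG per 1000 nt and were taken along the genome, whether or not they lay in an exon. Coding sequence and its reading frame were not treated apart. What part base composition, coding sequence and the choice of flanks had in the difference was not tested. Introns of genes of 200 kb or more had log2 ratios of -0.08 to 1.51, and the difference of -0.25 ± 0.36 from these missed the threshold (SD, n = 10, exact sign-flip permutation p = 0.0645, adjusted p = 0.0859). Between naïve and EAE mice the ratios of members were 0.56 ± 0.49 (SD, n = 3) and 0.64 ± 0.15 (SD, n = 7, exact permutation p = 0.725). This difference changed sign without naïve mouse 2, to -0.20 (exact permutation p = 0.111). Mild and severe EAE mice had 0.75 ± 0.09 (SD, n = 3) and 0.56 ± 0.14 (SD, n = 4, exact permutation p = 0.0857, adjusted p = 0.6).

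The footprint lists carry no strand, and the strand of the gene was used. Read in the opposite direction, the motif was above the flanks in severe EAE mouse 1 alone (11.29 against 10.99 CUA per 1000 nt). CUA occurred 6.89 to 11.3 times per 1000 nt in members and 10.0 to 12.3 times in flanks. There were 2.83, 1.27 and 3.00 UAG for each CUA in members of naïve mice 1, 2 and 3, 2.00 to 3.21 in mild EAE and 1.59 to 4.68 in severe EAE mice, against 1.15 to 1.92 in the flanks of all mice. The ratio in members was above that in flanks in 10 of 10 mice, by 0.84 ± 0.35 on the log2 scale (SD, n = 10, exact sign-flip permutation p = 0.00195), in a test that was chosen once these values were known.

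**Figure D3:**
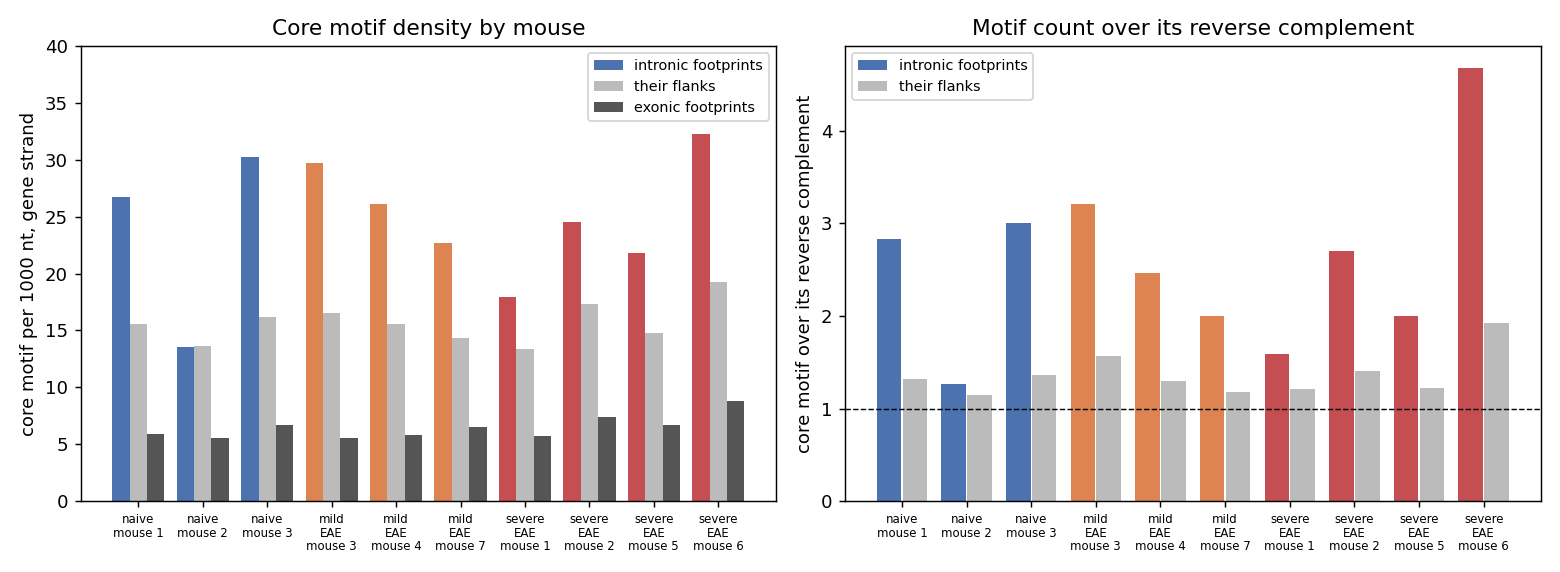
Left, core motif of hnRNP A1 per 1000 nt on the strand of the gene in intronic footprints, in flanks 200 nt away and in exonic footprints, by mouse. Right, the count of the motif over that of its reverse complement in intronic footprints and flanks, with a dashed line at 1. Naïve mouse 2 is level with its flanks at 13.6 per 1000 nt, the other 9 mice are above theirs, and exonic footprints are lowest in every mouse.

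The bars of motif density were carried in part by a few members with many motifs. Members with at least 10 UAG made up 10.4%, 1.73% and 10.0% in naïve mice 1, 2 and 3, 7.99% to 14.03% in mild EAE and 2.63% to 9.59% in severe EAE mice. They held 16.7% to 60.2% of all UAG in members. The median member held 1 to 3 UAG, and 12.4% to 27.3% held none. Over all 256 tetramers, 28 were above the flanks at an adjusted p under 0.05 (10.9%) and 65 were below (25.4%), by exact sign-flip permutation over the 10 mice in a test that was also added later. Of the 8 tetramers that hold UAG, 4 were above. AUAG had a mean log2 ratio of 1.03 ± 0.42 and UAGA of 1.00 ± 0.37, and GUAG and UAGG reached 0.80 ± 0.32 and 0.66 ± 0.34 (SD, n = 10, higher in 10 of 10 mice for each). GAUA led with 1.19 ± 0.40, and tetramers within one array are not independent of each other. UUUU was lowest, at -0.95 ± 0.31, below the flanks in 10 of 10 mice.

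Most regions were private to one mouse. Of the 8026 merged regions 6580 (82.0%) were found in 1 mouse, 771 in 2 and 365 (4.55%) in 4 or more. In all 3 naïve mice there were 98, of which 84 were also found in an EAE mouse, and in all 3 mild EAE mice there were 100. In at least 3 EAE mice and no naïve mouse there were 60, against 227 in at least 3 EAE mice and at least 1 naïve mouse. Regions in at least 2 severe EAE mice numbered 67, and 63 of these included severe EAE mouse 5.

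Shared regions were denser in UAG. Regions of 1 mouse held 16.4 UAG per 1000 nt, those of 2 mice 20.9, of 3 mice 23.1 and of 4 or more 32.1. CUA stayed at 10.8, 10.8, 9.80 and 9.97. Regions with at least 10 UAG made up 1.90% of those in 1 mouse and 36.4% of those in 4 or more. Regions shared by more mice were also longer, since they were merged (median 138 nt in 1 mouse and 272 nt in 4 or more). The densities are per length, whereas the share with at least 10 UAG is not. Naïve mouse 2 had the most members (2479) and the lowest density in members (13.6 UAG per 1000 nt). The densities by number of mice were not recomputed without it. An exception to the higher density was *Dip2a*, whose region of 942 nt was found in 7 mice with 0 UAG and 0 CUA. *Dip2a* was chosen for mention after its values had been seen.

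**Figure D4:**
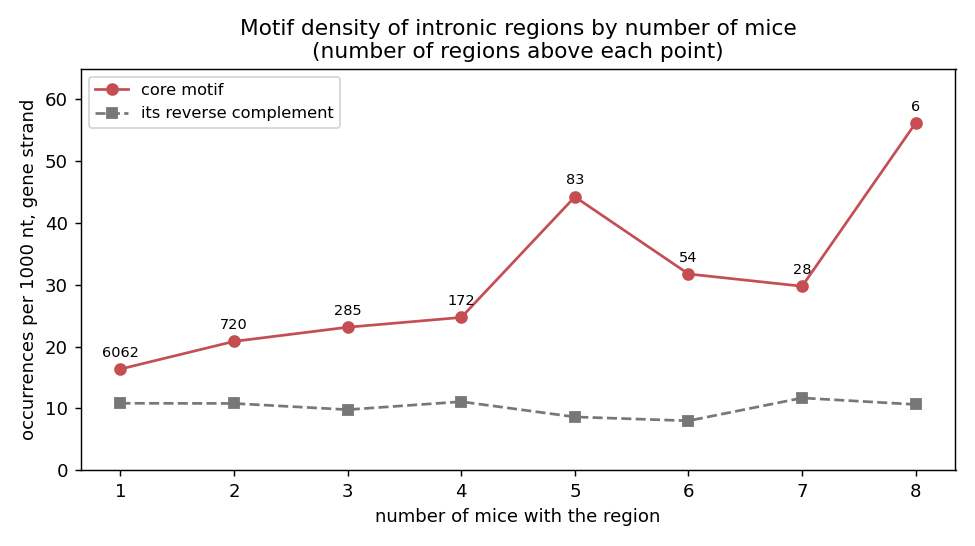
Occurrences per 1000 nt on the strand of the gene (vertical axis) of the core motif and of its reverse complement in merged intronic regions, by the number of mice with the region (horizontal axis), with the number of single-gene regions above each point. The motif is at 16.4 in regions of 1 mouse and 44.2 at 5 mice, falls to 31.8 at 6 and 29.8 at 7, and is at 56.2 in the 6 regions of 8 mice. Its reverse complement stays between 8.00 and 11.7.

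The genes behind the members were considered next. A member was found in 3515 genes of 20953 protein-coding genes under 200 kb, and 1979 of these genes had one in 1 mouse only. Among the 10 genes with a member in the most mice, several lie in families of near-identical copies, and for 6 of the 10 most members could not be placed. *Zfp973*, a zinc finger gene, had members in all 10 mice, with 10, 8 and 11 in naïve, 15, 18 and 21 in mild EAE and 2, 2, 18 and 1 in severe EAE mice. Only 3 of its 106 members were placeable, so its reads could have come from copies elsewhere. *Gm14410*, *Gm14401*, *Gm14399* and *Zfp965* lie in the same kind of cluster on chromosome 2, and *4930578G10Rik* and *Gm12394* overlap each other on chromosome 4, with 38 of 60 and 37 of 57 members placeable. The values of all these genes are uncertain, since copies and overlapping genes cannot be told apart without strand.

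Every member of *Mbp* and *Copg2* was placeable. *Mbp*, which encodes myelin basic protein, had 21, 9 and 22 members in naïve, 3, 5 and 16 in mild EAE and 2, 1, 27 and 0 in severe EAE mice. *Copg2*, a subunit of the coatomer of the Golgi apparatus, had 9, 6 and 6 in naïve, 6, 3 and 5 in mild EAE and 0, 1, 12 and 2 in severe EAE mice. Naïve and EAE mice overlapped for both. *Cep85*, for a centrosomal protein, had 1 to 5 members in each of 9 mice, of which 11 of 24 were placeable.

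A gene-wise test of naïve against EAE mice called none. By Fisher's exact test on mice with and without a member, 0 of 3515 genes (0%) passed an adjusted p of 0.05. At an unadjusted p under 0.05, 76 genes (2.16%) had a member in more naïve mice and 0 genes (0%) in more EAE mice. With severe EAE mice 2 and 6 left out, the 76 became 27. The smallest p of this design is 0.00833, and at least 586 genes would have to reach it for any to pass the adjustment, so the adjusted count of 0 carries no information on single genes. A gene absent from the short lists of severe EAE mice 1, 2 and 6 says little about that gene.

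Members in all 3 naïve mice were found for 261 genes. For 27 of these no EAE mouse had one, and those named here were among the 5 with the most covered intronic sequence. *Sptbn4* encodes a spectrin of axon initial segments and nodes of Ranvier and had 2, 3 and 1 members in naïve mice 1, 2 and 3. *Bckdhb* (a subunit of the branched-chain keto acid dehydrogenase) had 1, 2 and 2, *Mipep* (a mitochondrial peptidase) 1, 1 and 1, of which 1 of 3 was placeable, and *Lrp3* (a receptor of the LDL receptor family) 2, 1 and 2. Each had the smallest unadjusted p of the design and an adjusted p of 0.597 by Fisher's exact test. The choice of these genes fixes their direction.

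Members in at least 3 EAE mice were found for 338 genes, and for 31 of these no naïve mouse had one. *Tgfbr1*, a receptor of TGF-β, had 2, 6 and 5 members in mild EAE and 0, 0, 6 and 1 in severe EAE mice. *Cd84* had 2, 2 and 4 in mild EAE mice and 5 in severe EAE mouse 5. *Fyb*, an adaptor protein of T cells and myeloid cells, had 0, 4 and 7 in mild EAE mice and 2 in severe EAE mouse 5, of which 6 of 13 were placeable. *Rnf157* (a ubiquitin ligase) had 6 members in 4 EAE mice, 3 of them placeable, and *Zfp981* (a zinc finger gene) had 8, of which 2 were placeable. All had an unadjusted Fisher's exact p between 0.167 and 0.475, since 3 to 5 of 7 mice cannot reach the threshold against 0 of 3.

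**Figure D5:**
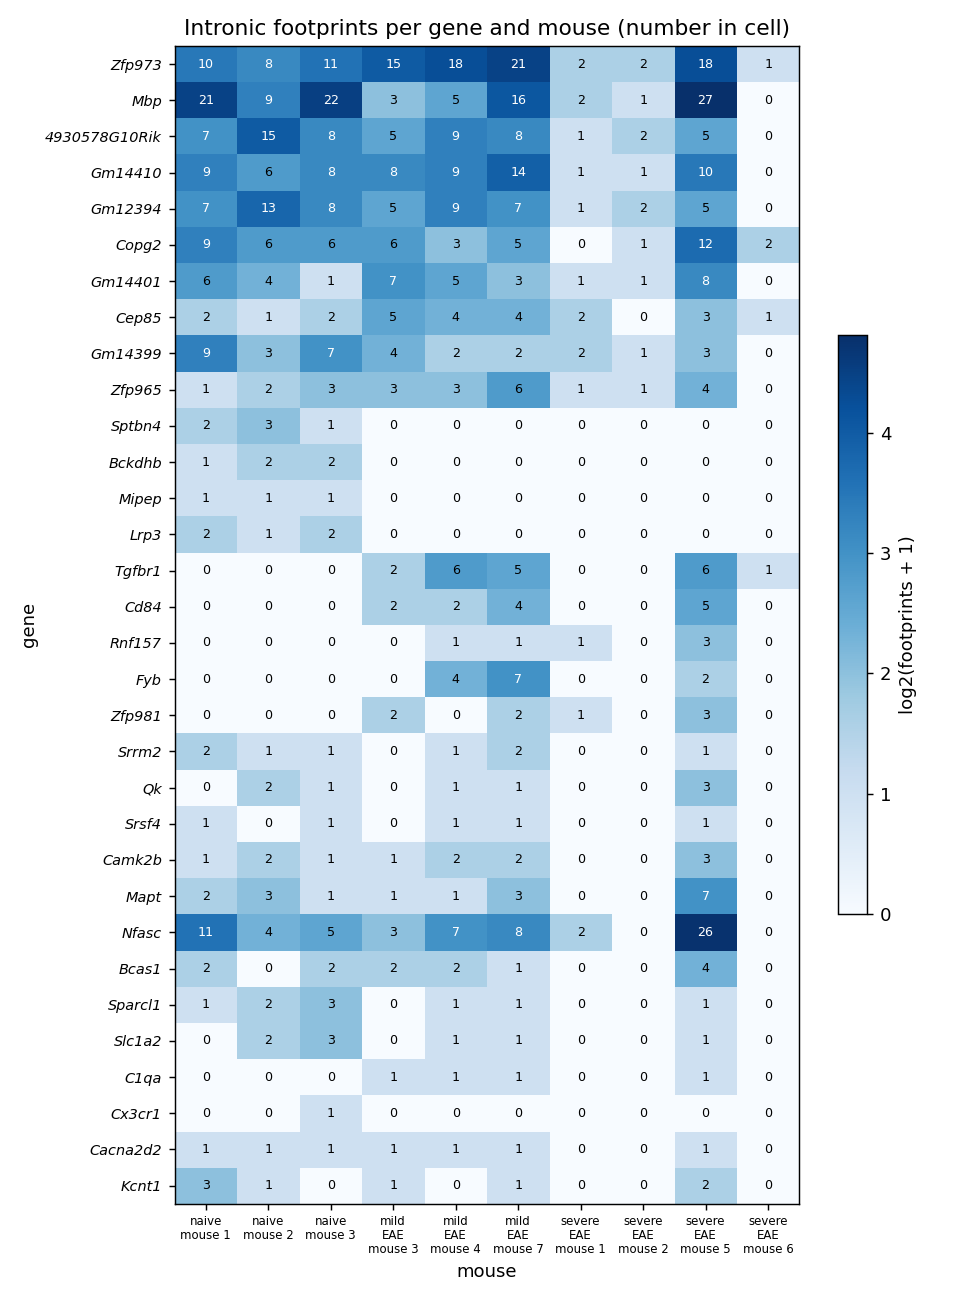
Number of intronic footprints (in each cell, shaded by log2 of the number + 1) for genes named in the text (vertical axis) in the 10 mice (horizontal axis). *Sptbn4* to *Lrp3* have footprints in the naïve mice alone and *Tgfbr1* to *Zfp981* in EAE mice alone, by choice of the rule, while severe EAE mice 1, 2 and 6 are near 0 for nearly all genes.

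Gene lists for cell types and functions were then read in the grid of genes and mice. Of 39 neuronal marker genes under 200 kb, 20 had a member, 16 in at least 2 naïve and 8 in at least 2 EAE mice (41.0% and 20.5%). Over all 20953 genes these shares were 4.00% and 3.40%, and 16.8% had a member. The limit of 2 mice is 2 of 3 for naïve but 2 of 7 for EAE mice, so the 2 shares are not alike. The list has a median of 44666 nt of intron per gene against 10505 nt over all genes. At an unadjusted Fisher's exact p under 0.05, 5 of the 20 with a member had one in more naïve mice, beside 2.16% of all genes with a member. The 5 were *Sptbn4*, *Syn1*, *Gria2*, *Snap25* and *Kif5a*. Over all genes, the 76 at this threshold lay among the 846 with a member in at least 3 mice. Genes with a member in fewer mice cannot reach it, so 2.16% is a low background for a widely footprinted list. *Syn1* (synapsin, of synaptic vesicles) had 1 member in each naïve mouse and none in EAE mice. *Gria2* (an AMPA receptor subunit) had 3, 2 and 2 in naïve mice and 1 in mild EAE mouse 7, and *Snap25* (a SNARE protein of synaptic vesicle release) had 3, 1 and 2 in naïve mice and 1 in severe EAE mouse 5.

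Other neuronal genes were found in both groups. *Camk2b* and *Mapt* had a member in all 3 naïve mice, all 3 mild EAE mice and severe EAE mouse 5. *Mapt*, which encodes the microtubule-associated protein tau, had 2, 3 and 1 members in naïve, 1, 1 and 3 in mild EAE mice and 7 in severe EAE mouse 5, so the groups overlapped. In bulk tissue, fewer cells of a type and less RNA per cell cannot be told apart. Counting all footprints, exonic ones included, 36 to 38 of the 44 neuronal markers were footprinted in naïve, 30 to 39 in mild EAE and 1 to 40 in severe EAE mice. The part of this in the intronic values was not tested.

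Of 44 microglia and leukocyte marker genes under 200 kb, 11 had a member (25%, beside 16.8% of all genes), 0 in at least 2 naïve mice and 2 in at least 2 EAE mice. For 9 of the 11, members were found in EAE mice alone, and for 2 (*Cx3cr1* and *Cybb*, 1 member each) in naïve mice alone. Of all 3515 genes with a member, 24.9% had members in EAE mice alone and 41.5% in naïve mice alone. *C1qa* had 1 member in each of 4 EAE mice. None passed an unadjusted p of 0.05 by Fisher's exact test. Over all footprints, 3 to 7 of 46 markers were footprinted in naïve, 17 to 24 in mild EAE and 1 to 29 in severe EAE mice. What part the number of such cells had in these values was not tested.

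Oligodendrocyte genes had members in 13 of 29 cases, 6 in at least 2 naïve and 8 in at least 2 EAE mice. Besides *Mbp*, *Nfasc* (neurofascin, which joins axon and glia at the node of Ranvier) had 11, 4 and 5 members in naïve, 3, 7 and 8 in mild EAE and 2, 0, 26 and 0 in severe EAE mice. *Bcas1*, a gene of myelinating oligodendrocytes, had 13 members in 6 mice with 346 UAG and 1 CUA, though only 7 were placeable. Astrocyte genes had members in 10 of 24 cases, 3 in at least 2 naïve and 3 in at least 2 EAE mice. Among these, *Sparcl1*, for a secreted matrix protein, had 1, 2 and 3 members in naïve mice and 1 in each of 3 EAE mice. *Slc1a2* (a glutamate transporter) had 0, 2 and 3 in naïve mice and 1 in each of 3 EAE mice. No gene of the oligodendrocyte, astrocyte or microglia lists had an unadjusted p under 0.05. Over all genes under 200 kb, 16.8% had a member, 4.00% in at least 2 naïve and 3.40% in at least 2 EAE mice.

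Of 62 splicing regulators under 200 kb, 23 had a member (37.1%), 9 in at least 2 naïve and 7 in at least 2 EAE mice. *Srrm2*, a component of the spliceosome and of nuclear speckles, had 2, 1 and 1 members in naïve mice, 0, 1 and 2 in mild EAE mice and 1 in severe EAE mouse 5. *Qk*, which directs splicing in oligodendrocytes, had 0, 2 and 1 in naïve mice and 5 in EAE mice. *Srsf4*, an SR protein, had 5 members in 5 mice with 65 UAG and 5 CUA. *Elavl4*, a neuronal RNA-binding protein, was the 1 regulator with an unadjusted Fisher's exact p under 0.05, with 3, 2 and 3 members in naïve mice and 1 in severe EAE mouse 5 (adjusted p = 0.597). Ion pumps and channels had the highest share, 20 of 28 genes (71.4%), with 13 in at least 2 naïve and 9 in at least 2 EAE mice and a median of 29898 nt of intron per gene. Over all genes under 200 kb, 16.8% had a member, 4.00% in at least 2 naïve and 3.40% in at least 2 EAE mice, with a median of 10505 nt of intron. *Cacna2d2*, a calcium channel subunit, had 1 member in each of the 3 naïve mice, the 3 mild EAE mice and severe EAE mouse 5, with 91 UAG and 1 CUA over these. *Kcnt1*, a sodium-activated potassium channel, had 8 members in 5 mice.

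Repeat-masked sequence made up 47.2%, 39.9% and 44.2% of the members' nucleotides in naïve mice 1, 2 and 3. The shares were 56.8%, 52.5% and 44.96% for mild EAE mice 3, 4 and 7. They were 58.1%, 54.9%, 40.6% and 46.2% for severe EAE mice 1, 2, 5 and 6. The groups overlapped, with means of 43.8% ± 3.69 (SD, n = 3) and 50.6% ± 6.68 (SD, n = 7, exact permutation p = 0.142, adjusted p = 0.938). Members per gene with a member were 1.56 ± 0.09 (SD, n = 3) in naïve and 1.55 ± 0.20 (SD, n = 7) in EAE mice (exact permutation p = 0.942). None of the 9 group results passed an adjusted p of 0.05. The smallest exact permutation p of 3 naïve against 7 EAE mice is 0.00833. A single result at that p could not pass the adjustment over 9 results, so the groups are not shown to be alike. Annotated small RNA genes lay within 200 nt of 0 to 5 members of a mouse.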

How the data were processed

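hnRNP A1 immunoprecipitations of 10 mice were used. The labels name antibody clone 9H10 with an IgG2a control, whereas the methods name clone 4B10 with IgG2b. Per the labels and methods, the authors converted base calls with bcl2fastq 2.19.0.316, trimmed reads with fastp, assembled contigs with rnaSPAdes, aligned them to GRCm38 with minimap2 2.17, removed sites also present in input or pooled IgG controls with bedtools, and merged the rest. The deposited files hold chromosome, start and end (other units, no score, strand or count). Inputs and IgG samples had no files used here. In all, 568 footprints on 17 sequence names without annotation were left out.

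Groups follow the labelled clinical scores. Genes, exons and splice sites came from GENCODE release M 21 (all transcripts), intron rank from 1 reference transcript per gene, and sequence from GRCm38 (samtools 1.23.1, pysam 0.24.0). Uniqueness was judged from stretches of 31 nt every 20 nt and at the midpoint. Motif ratios had 0.5 added to counts. Tests over mice were two-sided and exact, by permuting group labels for group means and by flipping signs for within-mouse values, and genes by Fisher's exact test (Python 3.11.15, numpy 2.4.6, scipy 1.17.1), each adjusted by Benjamini-Hochberg within its family. Mice are separate animals. Named genes were the 10 with a member in most mice, the 5 most covered in all naïve and no EAE mice, the 5 most covered in at least 3 EAE and no naïve mice, and 3 per list, except for a few genes that are not reported here. The tests were checked on simulated data. There, 200 genes planted in all naïve and no EAE mice all had an unadjusted p under 0.05 by Fisher's exact test, and 0 passed the adjustment. Both outcomes follow from the design, since such genes always have its smallest p and at least 586 are needed at that p. Members, lists and tests were chosen with earlier results of these data known. Alternatives are given in the closing section.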

Additional observations from a re-analysis of the deposited data

Results flagged for a closer look

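Among 14 measures looked at in the 4 severe EAE mice, 1 had a sample far from the others. The placeable share of members was 76.3% in severe EAE mouse 5 and 43.2% to 48.7% in severe EAE mice 1, 2 and 6, which also had the shortest lists. Chance alone marks about 1 in 20 such groups.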

How the results depend on the processing

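Of 351 recomputed values, 328 kept their direction and their side of the threshold. These include the setting that judged gene length only by spans that hold the midpoint, which changed no value, and the adjusted gene counts of 0. No group result passed an adjusted p of 0.05 in any alternative. With so few mice a single separated result could not have passed alone, so these counts say little about stability. Leaving out 1 mouse at a time moved the naïve-to-EAE differences as follows: intronic share -7.51 to -1.52 points, log2 median distance -0.117 to 0.0721, share within 300 nt -1.96 to -0.11 points, share nearer to a 3′ splice site -0.64 to 1.46 points, first-intron share 2.39 to 7.49 points, median length -2.29 to 7.21 nt, repeat share 4.89 to 8.56 points, UAG log2 ratio -0.20 to 0.25 and members per gene -0.0555 to 0.0373. The sign of UAG, length and the 3′ share turned without naïve mouse 2, that of distance and the 3′ share without severe EAE mouse 2, and that of members per gene without naïve mouse 1 or severe EAE mouse 1, 2 or 6. With severe EAE mice 2 and 6 left out, distance (0.0394), the 3′ share (-0.29 points) and members per gene (0.0531) changed sign, and the first-intron share fell below intronic length by -2.80 points with an adjusted p of 0.0208. With each intron counted once, distance was 0.0360 by the member nearest a splice site and 0.0413 by the longest member, and the repeat share was lower than in longer genes by -5.56 and -7.59 points, past the threshold. With placeable footprints only (added after the data were seen, as was the longest member), distance (0.22), the 3′ share (-3.95 points), the first-intron difference (0.00026 points) and the UAG difference from longer genes (0.0029) changed sign. The deficit within 300 nt was -0.14 points by the nearest edge and -1.43 and -3.08 points at limits of 100 and 1000 nt. Left-out mice moved the within-mouse values to -3.06 to -2.28 points (300 nt deficit), -2.18 to -1.21 points (first intron), 0.59 to 0.69 (UAG against flanks), 1.44 to 1.54 (UAG against exons), 0.49 to 0.56 (length), 9.78 to 10.2 points (300 nt, longer genes), -0.31 to -0.19 (UAG, longer genes) and -5.97 to -3.03 points (repeats). The adjusted gene count was 0 throughout, which in a design this small says nothing about stability. The 76 genes of the unadjusted count ranged from 69 to 112 without 1 mouse. Without severe EAE mouse 1 or mouse 2, 3 genes had an unadjusted p under 0.05 for more EAE mice. With the replicate number as a block (numbers 1, 2 and 3), the intronic share differed by -2.29 points. An exact sign-flip permutation p over 3 pairs cannot fall below 0.25, so no result could have been called there. Same-numbered mice had correlations of deviations of -0.15, 0.34 and 0.58, so the numbers are not taken as pairs. Unless stated, the cause of a change was not tested. Depth per footprint is unknown, and the 44 to 215 members of severe EAE mice 1, 2 and 6 limit all severe EAE values.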

Other observations

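*Ube3a*, a ubiquitin ligase gene that neurons transcribe from the maternal allele, was chosen for mention after its values had been seen. It had 39, 12 and 26 intronic footprints in naïve mice 1, 2 and 3, 13, 25 and 36 in mild EAE mice 3, 4 and 7, and 41 in severe EAE mouse 5, with 0 in severe EAE mice 1, 2 and 6. Of these 192 footprints 105 lay in intron 4, and all 192 were placeable. In neurons a long antisense transcript runs through this gene from the opposite strand, and the lists hold no strand, so the transcript that carried the footprints cannot be told apart.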
